A study of Rattus norvegicus with 6 samples.

Results

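Tenocytes, the resident cells of tendon, were studied for 6 genes of glucose uptake, glycolysis and the hypoxia response, which were taken by Ensembl identifier from a list of 6, and all 6 were among the 19133 genes of the deposited table. They were Slc2a1 (ENSRNOG00000007284), Hk2 (ENSRNOG00000006116), Ldha (ENSRNOG00000013009), Hif1a (ENSRNOG00000008292), Vegfa (ENSRNOG00000019598) and Txnip (ENSRNOG00000021201). The symbols come from that list, and no table used here could check how they pair with the identifiers. Cells isolated from the Achilles tendons of Sprague−Dawley rats made up a control group, given complete medium alone, and an IL−1β group, whose complete medium also held 50 ng/mL of the proinflammatory cytokine IL−1β during 24 h. Each group had 3 libraries. All libraries held poly(A)-selected RNA of cultured primary cells. The methods describe the data as coming from independent experiments, without saying for the sequencing whether these were separate cultures or rats, and the p-values measure the spread between these libraries. The tenocyte label was not checked against marker genes, because the other identifiers could not be paired with symbols. The comparison asks which genes differ between normal tenocytes and tenocytes with an inflammatory stimulus.

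Cells take up glucose through membrane transporters of the GLUT family and trap it by phosphorylation through a hexokinase. Glycolysis then turns it into pyruvate, which lactate dehydrogenase reduces to lactate. HIF-1α, the oxygen-regulated subunit of the hypoxia-inducible factor, is mainly controlled by the stability of its protein, and its textbook targets include Slc2a1, Hk2, Ldha and Vegfa. Txnip is an arrestin-like protein that binds thioredoxin and restrains glucose uptake, in part by drawing GLUT1 from the cell surface, and its transcription is known to follow the supply of glucose. Tendon is poorly vascularised, and its cells are known to rely on glycolysis. RNA levels alone were measured here, not proteins, glucose uptake or lactate.

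With IL−1β, 5 of the 6 genes rose and Txnip did not pass the test (adjusted p = 0.0654, limma). Slc2a1, Hk2, Ldha and Hif1a rose by close to the same factor, between 2.38-fold for Hk2 and 2.55-fold for Slc2a1, and Vegfa rose less, 1.61-fold. Txnip was at 0.906 of its control level. These folds are on the log2(FPKM + 0.1) scale after scaling between libraries, where FPKM counts the fragments of a gene divided by its length in kilobases and by the mapped fragments of its library. Genes were called at an adjusted p under 0.05 (limma, Benjamini-Hochberg adjustment over the 12408 tested genes, of which all 6 were part). By this rule 19.3% of all tested genes were called higher and 19.1% lower with IL−1β. An absolute log2 fold change over 1, the second threshold of the study, was also passed by 4 of the 6 genes, against 5.37% of the tested genes that rose past both thresholds. Groups that did not overlap, with IL−1β on the higher side, were found for 5 of the 6 genes and for 25.5% of the tested genes. In RNA of whole cultures, a change in the number of cells that express a gene and a change in RNA per cell cannot be told apart.

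The counted reads could be recovered as whole numbers from the steps of the FPKM values, and they totalled between 36507903 and 43100304 per library. For the 6 genes they ranged from 1533 reads on Hk2 in control library 2 to 47604 reads on Ldha in IL−1β library 2. Counting error was therefore at most 2.55% of any of these values, and it does not cover the spread between cultures. Between libraries of a group, the coefficient of variation lay between 1.29% (Hif1a, control) and 11.2% (Slc2a1, IL−1β), and it was larger in the IL−1β group than in the control group for every gene but Txnip. IL−1β library 1 held the highest value of Slc2a1, Hk2, Ldha and Hif1a. With both libraries numbered 1 left out, the log2 fold changes were 1.28 for Slc2a1, 1.20 for Hk2, 1.19 for Ldha, 1.23 for Hif1a, 0.68 for Vegfa and −0.15 for Txnip, and the calls were the same.

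**Figure D1:**
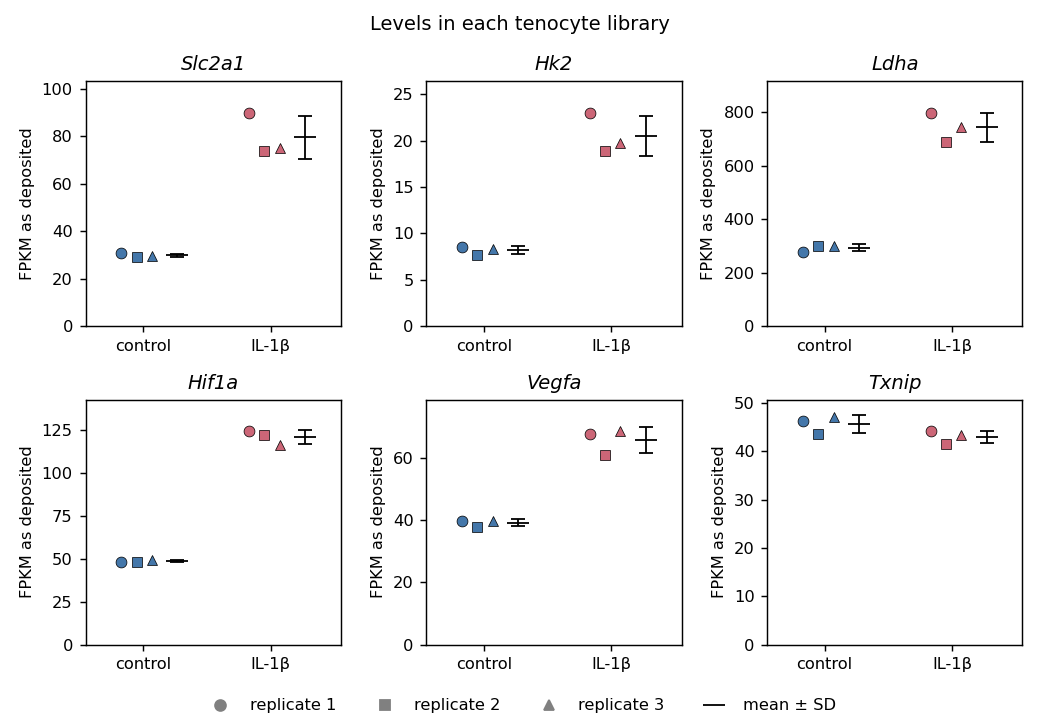
FPKM as deposited (vertical axes, each from 0) of the 6 genes in the 3 control and 3 IL−1β libraries; symbols mark the replicate number, bars the mean ± SD. The groups are apart for Slc2a1, Hk2, Ldha, Hif1a and Vegfa, and overlap for Txnip (43.5 to 47.1 FPKM without and 41.5 to 44.1 FPKM with IL−1β).

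Slc2a1 encodes GLUT1, the transporter through which most cells take up glucose in the basal state. It stood at 30.6, 29.1 and 29.6 FPKM in the control libraries (1, 2 and 3) against 89.8, 73.8 and 74.9 FPKM in those with IL−1β (again 1, 2 and 3). The lowest IL−1β library was 43.2 FPKM above the highest control library. The means were 29.8 ± 0.755 FPKM without and 79.5 ± 8.93 FPKM with IL−1β (SD, n = 3 each). The log2 fold change was 1.35 (standard error 0.087, adjusted p = 2.3e-05, limma), with a 95% confidence interval of 2.21- to 2.94-fold. This was the largest change of the 6, and 467 of the tested genes had a higher log2 fold change.

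The window of RefSeq around the Slc2a1 start, given here with those of Ldha and Hif1a because these are the 3 genes whose windows hold the core of a hypoxia response element, covers chr5:138002272-138002571 on the plus strand of GRCr8. The Ldha window is chr1:106507842-106508141 and the Hif1a window chr6:98359648-98359947, both on the plus strand. Each runs 5′ to 3′ from 250 bases before the annotated start to 50 bases after it. Capitals mark every ACGTG or GCGTG on either strand, so that CACGT and CACGC are matches on the other strand.
Slc2a1: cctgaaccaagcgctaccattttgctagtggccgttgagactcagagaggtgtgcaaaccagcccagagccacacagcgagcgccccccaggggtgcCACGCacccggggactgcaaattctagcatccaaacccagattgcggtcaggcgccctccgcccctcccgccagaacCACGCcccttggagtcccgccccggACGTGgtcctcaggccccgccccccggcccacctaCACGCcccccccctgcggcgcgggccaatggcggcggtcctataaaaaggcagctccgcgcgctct
Ldha: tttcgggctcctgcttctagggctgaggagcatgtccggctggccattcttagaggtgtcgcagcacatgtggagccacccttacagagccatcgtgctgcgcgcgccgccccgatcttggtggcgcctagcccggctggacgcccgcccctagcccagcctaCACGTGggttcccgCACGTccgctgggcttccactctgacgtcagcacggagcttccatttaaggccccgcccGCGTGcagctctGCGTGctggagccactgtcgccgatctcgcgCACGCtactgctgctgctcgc
Hif1a: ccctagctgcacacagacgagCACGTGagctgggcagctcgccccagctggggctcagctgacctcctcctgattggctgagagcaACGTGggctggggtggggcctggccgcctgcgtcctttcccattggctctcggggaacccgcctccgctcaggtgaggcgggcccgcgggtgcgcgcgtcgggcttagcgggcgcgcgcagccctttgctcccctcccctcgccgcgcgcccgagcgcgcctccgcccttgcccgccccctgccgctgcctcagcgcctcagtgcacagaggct

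Slc2a1 held 4 such matches, 153, 76, 51 and 16 bases before the start. Ldha held 6 and Hif1a held 3, and in both genes a pair of them overlaps as CACGTG, the E-box, which holds ACGTG on both strands. The E-box lies 87 bases before the Ldha start and 229 bases before that of Hif1a. The core was in 41.6% of the 33469 windows of the table and the E-box in 6.4%. A match of 5 letters is thus common, and it is a description of the letters and no evidence of binding. The windows of Hk2 (1) and Vegfa (2) held neither letter string. TGANTCA, the AP-1 motif, was in no window of these genes and in 7.3% of all windows. The looser NF-κB frame (GGG, any 5 bases, CC, both strands) was in the windows of Slc2a1, Ldha, Hif1a and Vegfa and in 47.3% of all windows. A window was found for 5 of the 6 genes, all but Txnip. The build used for the deposited values is not given in the sources used here, so these coordinates belong to the RefSeq windows only.

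Hk2 encodes hexokinase 2, the inducible hexokinase that phosphorylates glucose at the entry to glycolysis. Its level was 8.56, 7.71 and 8.35 FPKM in control libraries 1, 2 and 3. In IL−1β libraries 1, 2 and 3 it was 23.0, 18.9 and 19.7 FPKM. The groups did not overlap, and the means were 8.21 ± 0.443 and 20.6 ± 2.16 FPKM (SD, n = 3 each). The log2 fold change was 1.25 (standard error 0.092, adjusted p = 4.6e-05, limma), with a 95% confidence interval of 2.05- to 2.77-fold. It was the least abundant of the 6 genes in both groups, yet its control level was above that of 50.6% of the tested genes.

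Ldha encodes the A subunit of lactate dehydrogenase, which favours the reduction of pyruvate to lactate. It was the most abundant of the 6, with 277.3, 300.9 and 299.6 FPKM in the control libraries (1, 2 and 3) against 797.0, 688.3 and 746.2 FPKM in those with IL−1β (again 1, 2 and 3). Every IL−1β library was over 2 times as high as every control library. The means were 292.6 ± 13.3 and 743.8 ± 54.4 FPKM (SD, n = 3 each). The log2 fold change was 1.29 (standard error 0.068, adjusted p = 8.8e-06, limma), with a 95% confidence interval of 2.18- to 2.72-fold. Ldha took 0.0470% ± 0.0021 of the recovered reads without and 0.119% ± 0.0087 with IL−1β, and its control level was above that of 98.3% of the tested genes. Processed copies of Ldha are known in rodent genomes, and how reads shared with them were counted is not given in the sources used here.

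Hif1a encodes HIF-1α. It stood at 48.4, 48.1 and 49.3 FPKM in the control libraries (1, 2 and 3) against 124.4, 122.2 and 116.5 FPKM in those with IL−1β (again 1, 2 and 3). Within each group the libraries lay close together, and the means were 48.6 ± 0.625 and 121.1 ± 4.06 FPKM (SD, n = 3 each). Its log2 fold change of 1.26 had the smallest standard error of the 6 genes (0.046, adjusted p = 1.7e-06, limma), with a 95% confidence interval of 2.22- to 2.57-fold. The study itself singled out Hif1a on these libraries, so its direction here is not independent evidence.

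Vegfa encodes vascular endothelial growth factor A, the main signal for the growth of blood vessels. Its level was 39.9, 37.8 and 39.6 FPKM in the control libraries (1, 2 and 3) against 67.7, 61.0 and 68.5 FPKM in those with IL−1β (again 1, 2 and 3). The groups did not overlap, and the means were 39.1 ± 1.12 and 65.7 ± 4.13 FPKM (SD, n = 3 each). The log2 fold change was 0.69 (standard error 0.059, adjusted p = 0.000101, limma), with a 95% confidence interval of 1.46- to 1.77-fold that ends below the 2-fold threshold of the study. The table gives 1 value per gene, so the splice forms of Vegfa were not separated.

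Txnip was the one gene of the 6 that did not pass. It stood at 46.2, 43.5 and 47.1 FPKM in the control libraries (1, 2 and 3) against 44.1, 41.5 and 43.3 FPKM in those with IL−1β (again 1, 2 and 3). Control library 2 lay below IL−1β library 1, so the groups overlapped in the deposited values. After scaling between libraries they no longer overlapped, by a narrow margin, with control library 2 at 5.47 and IL−1β library 1 at 5.46 on the log2 scale. The share of all tested genes apart on the lower side is not given here, so nothing is read into this separation. The means were 45.6 ± 1.87 and 43.0 ± 1.34 FPKM (SD, n = 3 each). The log2 fold change was −0.14 (standard error 0.052, unadjusted p = 0.0269, adjusted p = 0.0654, limma). Its 95% confidence interval, not adjusted for the number of genes, ran from 0.833 to 0.985 of the control level, so a fall to below 0.833 of the control level, or a rise, lies outside it. The call depended on the settings. Without IL−1β library 1 the log2 fold change was −0.17 (adjusted p = 0.0395, limma), and with quantile normalization it was −0.18 (adjusted p = 0.0281, limma). Over all 16 alternatives the value was negative and the adjusted p lay between 0.0281 and 0.204.

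**Figure D2:**
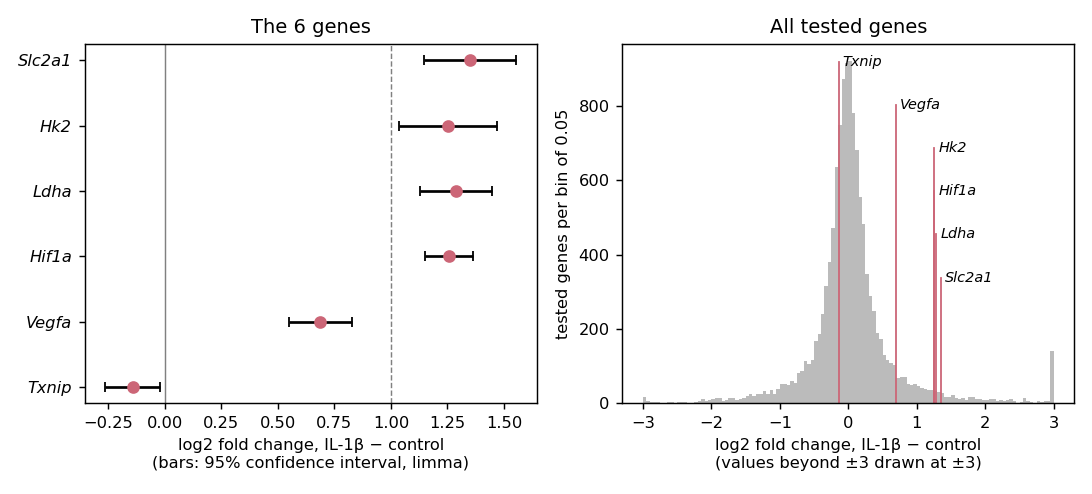
Left, log2 fold change (IL−1β minus control) of the 6 genes with 95% confidence intervals from limma; lines mark no change and a log2 fold change of 1. Right, the same values (lines) on the histogram of the 12408 tested genes; Slc2a1, Hk2, Ldha and Hif1a lie between 1.25 and 1.35, Vegfa at 0.69 and Txnip at −0.14.

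Among all tested genes, the median log2 fold change was 0.0007, which the scaling between libraries largely sets (0.0576 without it and −0.0515 with quantile normalization). Slc2a1 changed upward by more than 96.2% of the tested genes, Ldha by more than 95.9%, Hk2 and Hif1a each by more than 95.8% and Vegfa by more than 91.0%, and 30.2% of the tested genes had a lower fold change than Txnip. The confidence intervals of Slc2a1, Hk2, Ldha and Hif1a overlapped one another. The interval of Vegfa lay below those of the other risers, and the interval of Txnip lay below all.

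The order of the 6 genes by FPKM, which is per length of gene, differed between the groups. In the control group it was Ldha, Hif1a, Txnip, Vegfa, Slc2a1 and Hk2. In the IL−1β group Slc2a1 stood in place 3, ahead of Vegfa in place 4 and Txnip in place 5. In both groups, every library of a gene lay above every library of the next gene in the order. The closest neighbours were Hif1a (lowest control library 48.1 FPKM) and Txnip (highest control library 47.1 FPKM).

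Ratios within a library do not depend on the scaling between libraries, and 3 were compared. The ratio of Txnip to Slc2a1 compares their RNA levels and is not a measure of restraint on GLUT1. It was 1.51, 1.49 and 1.59 in the control libraries (1, 2 and 3) against 0.491, 0.562 and 0.578 in those with IL−1β (again 1, 2 and 3). Txnip was thus above Slc2a1 in each control library and below it in each IL−1β library. The log2 fold changes were 1.35 for Slc2a1 and −0.14 for Txnip, so the ratio mostly restates the rise of Slc2a1. The difference of the mean log2 ratios was −1.49 (exact permutation test, two-sided, p = 0.10). This p is the smallest that 3 libraries against 3 can give, so none of the 3 ratios could pass a threshold of 0.05, with or without adjustment.

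The ratio of Vegfa to Hif1a was 0.823, 0.787 and 0.804 in control libraries 1, 2 and 3. It was 0.544, 0.499 and 0.588 in IL−1β libraries 1, 2 and 3, all below the control libraries, and the difference of the mean log2 ratios was −0.57 (exact permutation test, two-sided, p = 0.10). The ratio of Ldha to Hk2 was 32.4, 39.1 and 35.9 in the control libraries (1, 2 and 3) against 34.7, 36.4 and 37.8 in those with IL−1β (again 1, 2 and 3). Here the groups overlapped, and the difference of the mean log2 ratios was 0.034 (exact permutation test, two-sided, p = 0.80), below the SD within either group (0.134 and 0.062). It turned to −0.035 without control library 1. With a pseudocount of 1 it was 0.118, above the SD within the IL−1β group and below the SD within the control group. Both SDs were taken at a pseudocount of 0.1.

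**Figure D3:**
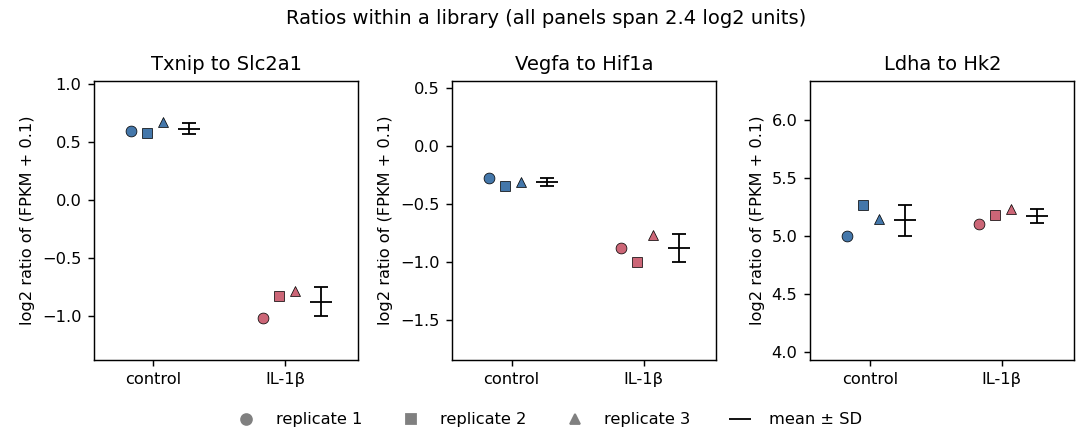
Log2 ratio of (FPKM + 0.1) between a pair of genes within each library, by group; symbols mark the replicate number, bars the mean ± SD, and all panels span the same range. Txnip to Slc2a1 goes from a mean of 0.61 without to −0.88 with IL−1β, Vegfa to Hif1a from −0.31 to −0.88, and Ldha to Hk2 from 5.14 to 5.17.

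By Pearson's r of the log2 values over the 6 libraries, the tested gene most like Slc2a1 was ENSRNOG00000006623 (r = 0.9998, log2 fold change 2.32). The one most like Hk2 was ENSRNOG00000017154 (r = 0.9996, log2 fold change 1.10). The one most like Txnip was ENSRNOG00000022249 (r = 0.9998, log2 fold change −0.16). With 6 libraries in 2 groups and 12408 tested genes to choose from, values this close to 1 describe the best match only. All the genes compared were measured in the same 6 libraries and so share the depth and the size factor of each.

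**Figure D4:**
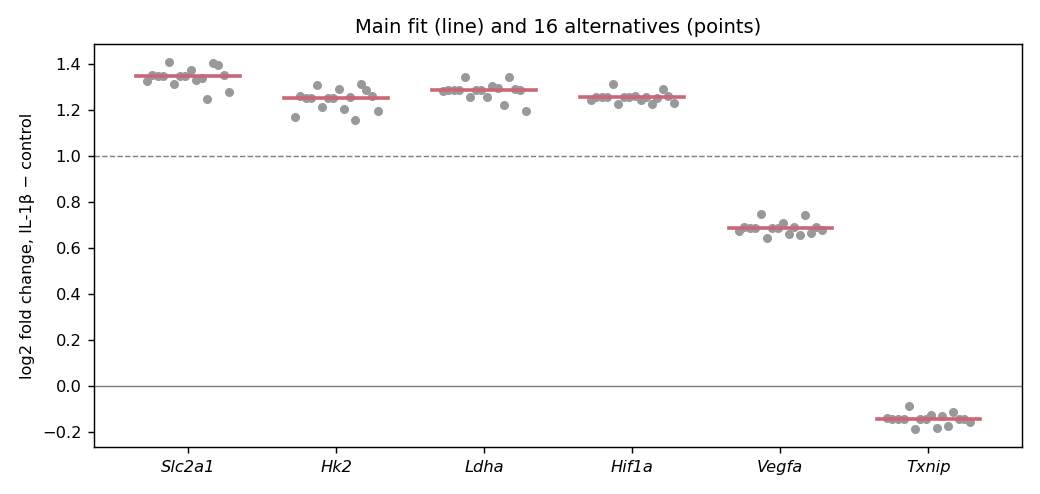
Log2 fold change (vertical axis, IL−1β minus control) of the 6 genes in the reported fit (line) and in 16 alternative settings or subsets of libraries (points); lines mark 0 and 1. Slc2a1, Hk2, Ldha and Hif1a stay above 1 (lowest point 1.16, Hk2), Vegfa between 0.64 and 0.75, and Txnip between −0.18 and −0.09.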

How the data were processed

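RNA of 3 control and 3 IL−1β tenocyte libraries was sequenced in pairs of reads. The table the authors deposited holds FPKM, with a row for each of 19133 rat Ensembl identifiers and a column for each library. Their processing notes name HISAT2 and featureCounts without versions. Genome build, annotation and strand setting are not given in the sources used here. Groups and replicate numbers were taken from the sample labels. The genes and the lists were chosen with earlier results of these data known.

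FPKM values were divided by median-of-ratios size factors (0.969 to 1.032), raised by a pseudocount of 0.1 and converted to log2. The 12408 genes that reached 0.5 FPKM in 3 or more libraries were fitted without a block in limma 3.58.1 (R 4.3.3; two-sided, intensity trend). This scale understates the change of low genes. The DESeq2 test of the authors takes counts and was not repeated on FPKM. Whole reads were recovered with Python 3.11.15 and numpy 2.4.6 as the smallest whole gene length that gave whole reads in every library, and made up 99.69% to 99.71% of the divisor of each library. Reads of genes with few counts can come out too low by a common factor. Both procedures were tested on simulated data.

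Alternatives were 2 pseudocounts, 2 filters, 2 scalings, no trend, a replicate block and leaving out each library. Limma-voom on the recovered reads and replicates 2 and 3 only were added after seeing the data. The 106 genes of the planned pathway and marker lists (glycolytic enzymes, transporters, HIF regulators and others) were not analysed, because the RefSeq table (GRCr8) pairs 0 Ensembl identifiers with symbols. Named genes were the 6 members, and for likeness at most 2 identifiers that rose and 2 that fell. Promoter windows came from RefSeq (GRCr8).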

Additional observations from a re-analysis of the deposited data

How the results depend on the processing

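The rises of Slc2a1, Hk2, Ldha, Hif1a and Vegfa kept their direction and an adjusted p under 0.05 (limma) in all 16 alternatives, and Vegfa stayed under a log2 fold change of 1 in each. Txnip was lower in all 16 and passed in 2 of them, quantile normalization (−0.18) and without IL−1β replicate 1. Its value ranged from −0.18 to −0.11 when each library was left out in turn. The number of all tested genes past both thresholds was 697 with a pseudocount of 1, against 1078, and lay within 1.5 times of 1078 otherwise. Without control replicate 1 the Ldha to Hk2 log2 ratio was −0.035, and across the libraries left out in turn it ranged from −0.035 to 0.099; with a pseudocount of 1 it was 0.118, against 0.034. The cause of these shifts was not tested. With the replicate block the log2 fold change of Txnip was −0.14 (adjusted p = 0.0531, limma) and no call of the 6 genes changed. After centring on the group mean, control and IL−1β libraries of the same number correlated across genes at 0.094, 0.021 and 0.034. The numbers were not taken as pairs, and these values cannot tell whether libraries of the same number shared a culture. TMM scaling before limma-voom was not run, and median-of-ratios sizes took its place. Depth does not limit the 6 genes, which had at least 1533 reads each. With 3 libraries a group, small changes such as that of Txnip are near the limit of the test.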
